A study of Mus musculus with 201 samples.

Results

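Dentate granule cells (DGCs) are the principal excitatory neurons of the dentate gyrus. Their activity state was read here from single nuclei that had been sorted on FOS protein. The genes described are mainly those detected broadly among the nuclei, counted over both sort groups with no minimum for either group. A gene could therefore be included with few detecting nuclei in either group. A wild-type female C57BL/6 mouse, 8 weeks old, explored a new environment (NE), a large cage with huts and tunnels, for 15 min and was returned to its home cage (HC) for 1 h. Nuclei were released by Dounce homogenization, stained for the DGC protein PROX1 and for FOS, and sorted singly as PROX1+FOS+ or PROX1+FOS-. RNA was amplified by the Smart-seq2 protocol in 4 conditions that crossed a template-switching oligonucleotide (TSO) at 1 or 10 µM with a spike-in (ERCC) dilution of 1:200 or 1:2000. Nuclei were kept if their total expected count was over 50000 and if their number of genes with a TPM (RSEM's abundance of transcripts, normalised for gene length and for the total of the nucleus) above 1 was over 693, which is the mean of the table minus 2 SD. This kept 40 of 48 FOS+ and 41 of 48 FOS- nuclei. Of 42802 gene symbols in the table, 9351 had a TPM above 1 in 20 or more of the kept nuclei, and these are the broadly detected genes. *Fos* itself was not among them, with a TPM above 1 in 12 FOS+ and 3 FOS- nuclei.

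Neuronal firing opens calcium channels and NMDA receptors, and the resulting kinase signals reach the nucleus within minutes. There, transcription factors that are already bound, among them CREB and serum response factor, switch on immediate early genes (IEGs) without new protein synthesis. Some IEGs encode further transcription factors such as FOS, JUN and the NR4A family. Others encode effectors that act at the synapse, such as ARC, or secreted factors such as BDNF. In the dentate gyrus only a sparse set of granule cells is active in any environment, and FOS protein is widely used to mark them. Nuclei hold newly made and retained RNA, so the values below are nuclear RNA levels.

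Total expected counts ranged from 80096 to 1035170 (median 269061) in FOS+ and from 63775 to 1060516 (median 214421) in FOS- nuclei. The number of genes detected was 6185 ± 1398 (SD, n = 40) and 6281 ± 1539 (SD, n = 41). FOS- nuclei lay in plate columns 1 to 6 and FOS+ nuclei in columns 7 to 12, so well column and sort group cannot be told apart. All nuclei came from 1 mouse and 1 isolation pool. Each sort group is therefore 1 sample, and no test or p value is given. Genes are described by a rule of size. A gene was called higher in FOS+ nuclei if its mean log2(TPM + 1) was greater by at least 2 and the difference had the same sign within all 4 amplification conditions, and called lower by the mirror rule. Differences are FOS+ minus FOS- on that log2 scale, and SDs are over nuclei.

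**Broadly detected genes called between the sort groups.** Of the 9351 genes, 177 were called higher (1.89%) and 99 lower (1.06%) in FOS+ nuclei. Among all 16411 genes with a rounded count above 0 in 5 or more kept nuclei, the shares were 1.19% and 0.628%. The genes called higher were led by *Arc*, *Plk2*, *Ankrd33b*, *Spry2* and *Pcdh8*, and those called lower by the small nuclear RNA gene *Gm25873* and by *Scn3b*, *Soga3*, *Grb14* and *Myef2*. The middle of the distribution was narrow, with a median difference of -0.11 and 90% of the genes between -1.36 and 1.37. Large differences were mostly upward, since 61 genes were higher by 3 or more and 9 were lower by 3 or more. Genes called higher were detected in a median of 72.5% of FOS+ and 36.6% of FOS- nuclei, and genes called lower in 40% and 68.3%, as the plot of detection shows. For 55 of the 177 genes fewer than 10 FOS- nuclei had a TPM above 1, and for 23 of the 99 fewer than 10 FOS+ nuclei did, so these genes entered the set mainly through the group in which they were high. At the limit itself, 342 genes were detected in exactly 20 nuclei, with 3 calls and a median absolute difference of 0.36, and 300 genes in 19 nuclei, with 5 calls and 0.42. Requiring 10 detecting nuclei in each group left 122 and 76 calls. The balance of calls moved with the scale. On log2 counts divided by DESeq2 size factors, 120 genes were called higher and 14 lower, so that 89.6% of calls were upward against 64.1% here, and the median over the genes moved from -0.11 to 0.00.

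**Figure D1:**
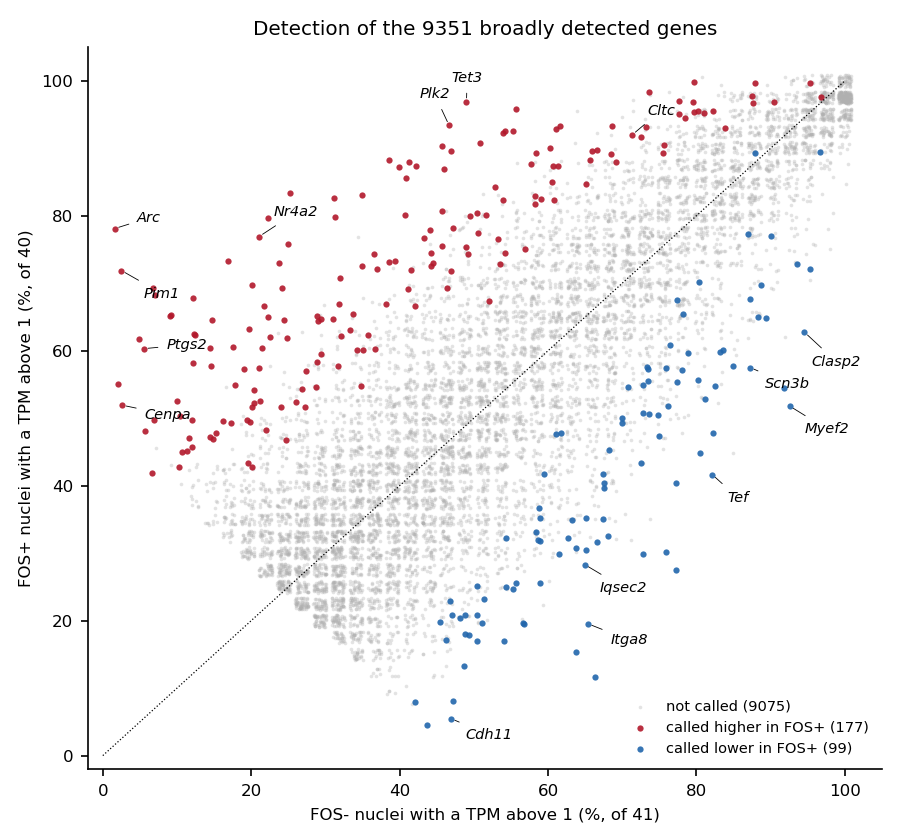
Each point is a broadly detected gene, placed by the percentage of 41 FOS- nuclei (x axis) and of 40 FOS+ nuclei (y axis) with a TPM above 1, with a small random offset to separate overlapping points. The 177 genes called higher in FOS+ nuclei lie above the dotted line of equality, except *Dnajc1* at 97.5% and 97.6%, and the 99 genes called lower lie below it, except *Mysm1*.

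Within single nuclei, FOS+ nuclei detected between 23.7 and 97.7% of the 177 genes (median 74.9%) and FOS- nuclei between 13.6 and 65.5% (median 35%). The ranges overlapped. For the 99 genes called lower the FOS+ nuclei ranged from 13.1 to 69.7% (median 39.9%) and the FOS- nuclei from 38.4 to 93.9% (median 70.7%). Over all broadly detected genes the medians were 55.4 and 52.3%. These shares describe genes that were chosen on the same values.

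***Arc*, *Pim1*, *Ptgs2* and *Nr4a2*.** These 4 genes mark activated neurons, and all were called higher in FOS+ nuclei. *Arc*, *Pim1* and *Ptgs2* were detected in 1, 1 and 2 FOS- nuclei and *Nr4a2* in 9. They entered the set mainly through FOS+ nuclei, so their calls give no support of their own. *Arc*, which encodes a synaptic protein that drives AMPA receptor endocytosis, lies on chromosome 15 of GRCm38 from 74669083 to 74672570. Its TPM ran from 0 to 2053 (median 430) in FOS+ nuclei and from 0 to 1.94 (median 0) in FOS- nuclei. It was detected in 31 of 40 FOS+ nuclei (77.5%, exact 95% interval 61.5 to 89.2%) and in 1 of 41 FOS- nuclei (2.44%, 0.0617 to 12.9%). The FOS+ median thus lay far above the highest FOS- value, while the FOS+ nuclei without *Arc* overlapped the FOS- group at 0. The difference in mean log2(TPM + 1) was 6.63, between 6.71 ± 4.19 and 0.08 ± 0.30 (SD, n = 40 and 41). Intervals of shares, here and below, cover only the sampling of nuclei from this preparation of 1 mouse. Poisson intervals of sums cover only the counting error of reads, since the reads carry no molecular identifiers.

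*Pim1*, which encodes a serine/threonine kinase that promotes survival, was detected in 72.5% of FOS+ (interval 56.1 to 85.4%) and 2.44% of FOS- nuclei. Its TPM reached 700.6 in FOS+ (median 76.7) and 3.18 in FOS- nuclei (median 0), a difference of 4.77 between 4.84 ± 3.33 and 0.07 ± 0.35. An exon of *Pim1* overlaps *Gm26885* on the opposite strand, and the libraries do not keep strand. *Ptgs2* encodes cyclooxygenase-2, which makes prostaglandin precursors. It was detected in 60% of FOS+ (interval 43.3 to 75.1%) and 4.88% of FOS- nuclei (0.596 to 16.5%), with a difference of 4.14. *Nr4a2*, an orphan nuclear receptor, had the highest background of the 4. It was detected in 77.5% of FOS+ and 22% of FOS- nuclei (interval 10.6 to 37.6%), but no FOS- nucleus exceeded a TPM of 8.31, whereas the FOS+ median was 45.7 and the maximum 2700. Summed over the 41 FOS- nuclei, *Arc* had 4 counts (Poisson interval 1 to 10), *Pim1* and *Ptgs2* 3 each (1 to 9) and *Nr4a2* 19 (11 to 30). Over the 40 FOS+ nuclei the sums were 18108, 3499, 6056 and 9147.

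The markers were found together in most but not all FOS+ nuclei. All 4 were detected in 21 FOS+ nuclei, 3 in 7, 2 in 2, 1 in 6 and none in 4. Among FOS- nuclei, none was detected in 30, 1 in 9 and 2 in 2, and no FOS- nucleus had 3 or 4. These counts describe markers that were chosen with earlier results of these data known. The FOS+ nuclei with few markers were unevenly spread over the amplification conditions. At most 1 marker was detected in 7 of the 11 FOS+ nuclei prepared with 10 µM TSO and ERCC at 1:200. In the other conditions this held for 0 of 10 (1 µM, 1:200), 1 of 8 (1 µM, 1:2000) and 2 of 11 (10 µM, 1:2000). That condition also had the lowest median total count, at 152332 for FOS+ and 79166 for FOS- nuclei. Whether its depth bears on the missing markers was not tested. The paper describes FOS+ nuclei that grouped with FOS- nuclei and held little *Arc*, *Fos* and *Egr1* RNA. It left them out of its comparison of the groups and reports no association with read depth. Whether they are the nuclei with few markers is not known. Here nuclei with few markers stay in every FOS+ mean and share.

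**Figure D2:**
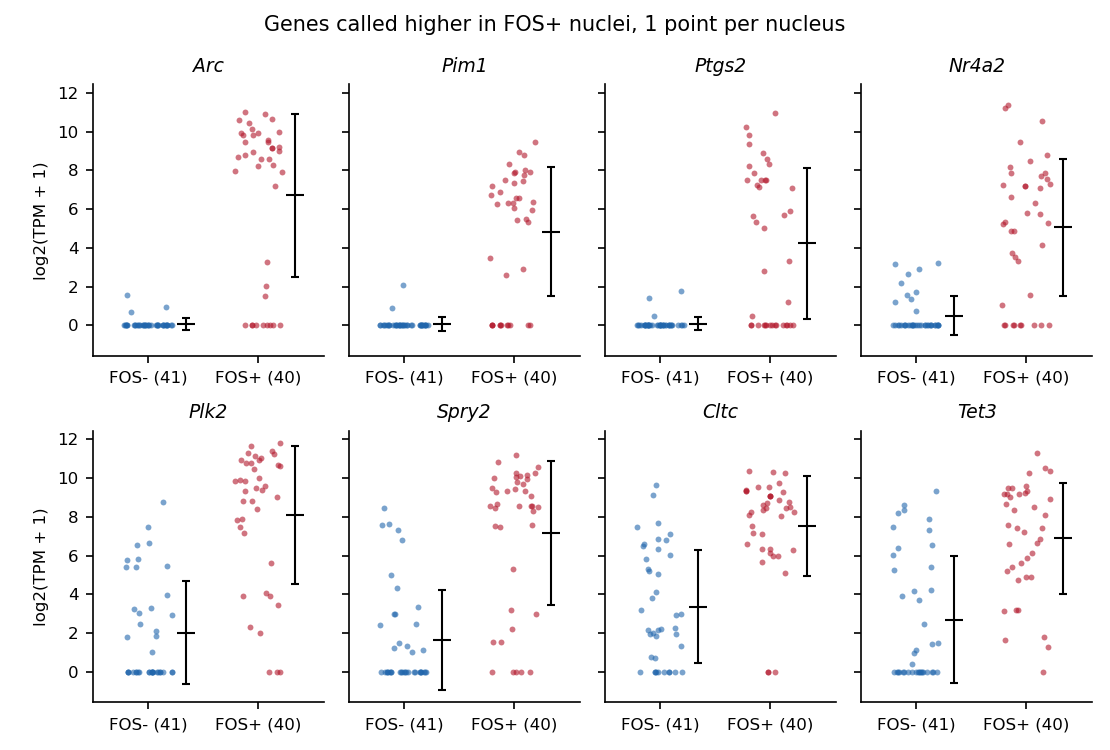
Each point is 1 nucleus, with its log2(TPM + 1) on the y axis for 8 genes called higher in FOS+ nuclei, 41 FOS- nuclei in blue and 40 FOS+ nuclei in red. Black bars give the mean and SD over nuclei. *Arc*, *Pim1* and *Ptgs2* are at 0 in most FOS- nuclei and *Nr4a2* stays below its FOS+ mean in all of them, whereas *Plk2*, *Spry2*, *Cltc* and *Tet3* reach high values in part of the FOS- nuclei too.

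**Immediate early transcription factors.** Of 29 listed genes, 10 were broadly detected, 7 of these were called higher (70%) and none lower, against 1.89% and 1.06% of all broadly detected genes. The list was written with earlier results of these data known. *Nr4a2*, *Nr4a3*, *Fosl2*, *Fosb*, *Junb* and *Tsc22d2* were each detected in fewer than 10 FOS- nuclei, and *Jun* in 14. Those below 10 entered the set mainly through FOS+ nuclei, so the share called gives no support of its own. Nor does any share of the lists below, since they too were written with earlier results known. The median difference of the 10 was 2.85. *Nr4a2* (difference 4.56) and *Nr4a3* (3.51) encode nuclear receptors of the same family. *Fosl2* (3.0), *Fosb* (2.81), *Junb* (2.89) and *Jun* (2.04) encode subunits of the AP-1 complex. *Tsc22d2* (3.52), a leucine zipper gene less often counted among IEGs, was detected in 67.5% of FOS+ and 7.32% of FOS- nuclei. Its relative *Tsc22d1* differed by 2.08 but did not keep the sign in every condition, and *Jund* (0.64) and *Mafg* (0.36) were not called. *Jun* showed how a mean on the log scale can part from summed counts. It was detected in 72.5% and 34.1% of nuclei, yet its summed CPM (the gene's summed count over the group's summed total, scaled as TPM is) was 164 in FOS+ and 116 in FOS- nuclei. Of the 19 listed genes that were not broadly detected, *Fos*, *Egr4*, *Nr4a1* and *Atf3* met the rule of size. *Fos* reached a TPM of 2819 in FOS+ and 13.8 in FOS- nuclei, and differed by 2.05, between 2.24 ± 3.79 and 0.18 ± 0.71.

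**Activity-regulated effectors.** Of 43 listed genes, 25 were broadly detected and 19 were called higher (76%), none lower, against 1.89% and 1.06% of all broadly detected genes. The median difference of the 25 was 4.09. This list too was written with earlier results known. *Arc*, *Pim1* and *Nptx2* were each detected in 1 FOS- nucleus and *Ptgs2* and *Vgf* in 2, so they entered the set through FOS+ nuclei. *Plk2* and *Homer1*, in contrast, were detected in 19 and 22 FOS- nuclei. *Plk2*, a polo-like kinase that acts in homeostatic weakening of synapses, was among the most widely detected. Its TPM ranged from 0 to 3564 (median 702) in FOS+ nuclei and from 0 to 432.7 (median 0) in FOS- nuclei, and it was detected in 92.5% and 46.3% of them. The difference was 6.05, between 8.08 ± 3.56 and 2.03 ± 2.65, and the summed CPM was 1840 against 32.4, a 56.8-fold ratio. *Ankrd33b*, which encodes an ankyrin repeat protein, differed by 5.66 and was detected in 82.5% and 24.4% of nuclei. Among secreted factors, *Inhba* (4.96), which encodes the activin A subunit, *Bdnf* (4.58), *Vgf* (4.14), *Nptx2* (4.09), *Scg2* (3.80) and *Nrn1* (3.45) were called higher. *Bdnf* was already present in 39% of FOS- nuclei, with a maximum TPM of 178.9 there and of 1439 in FOS+ nuclei, so that the groups overlapped. *Nptx2* and *Vgf*, in contrast, were detected in 2.44% and 4.88% of FOS- nuclei, while the related *Nptx1* was detected in 85.4% of them and differed by 0.54, which is not a call. *Homer1* (4.42), a scaffold of group I metabotropic glutamate receptors, was detected in 92.5% and 53.7% of nuclei. The short activity-dependent and the long constitutive transcripts of *Homer1* are summed in these gene-level values. The remaining calls were *Sgk1*, *Gadd45g*, *Gadd45b*, *Rheb*, *Grasp*, *Arl5b* and *Fbxo33*, besides *Arc*, *Pim1* and *Ptgs2*. Of the 18 listed genes that were not broadly detected, *Rgs2* and *Arl4d* met the rule of size.

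**Kinase signalling.** Of 12 broadly detected feedback regulators of MAP kinase signalling, 2 were called higher and none lower (median 0.25). The share called higher was 16.7%, against 1.89% of all broadly detected genes. It rests on 2 genes. Of these, *Errfi1* was detected in 24 FOS+ and 7 FOS- nuclei and so entered the set mainly through FOS+ nuclei. *Spry2*, an inhibitor of receptor tyrosine kinase signalling, had a TPM of 0 to 2380 (median 383) in FOS+ and 0 to 357.2 (median 0) in FOS- nuclei, a difference of 5.51. *Errfi1*, an inhibitor of the EGF receptor, differed by 2.71, but by only 0.03 with 1 µM TSO and ERCC at 1:200. The dual-specificity phosphatase genes *Dusp1*, *Dusp4*, *Dusp5* and *Dusp6* were not broadly detected. *Braf*, which encodes a kinase upstream in the same cascade and was picked once the values were known, was called higher at 2.07, detected in 90% and 65.9% of nuclei. Of 16 broadly detected genes of CREB signalling, *Rps6ka3*, which encodes the CREB kinase RSK2, was the only call (3.04, 6.25% of the list), and *Creb1* itself differed by 0.55.

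Second-messenger genes were called at shares near the background of 1.89% and 1.06%. Of 40 genes of calcium and calmodulin signalling, *Hpcal4*, a neuronal calcium sensor, was called higher (3.60) and *Camta1*, a calmodulin-binding transcription activator, lower (-2.09). Of 39 genes of cyclic nucleotide signalling, *Pde4a*, a cAMP phosphodiesterase, was called higher (2.82) and *Pkia*, an inhibitor of protein kinase A, lower (-2.26), the latter not on any of 4 other scales. Of 39 phosphoinositide genes, *Pi4ka*, a phosphatidylinositol 4-kinase, was called higher (2.56).

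**Chromatin, RNA processing and noncoding RNA.** Of 84 broadly detected chromatin genes, 4 were called higher (4.76%) and 1 lower (1.19%), with a median of -0.16. The shares over all broadly detected genes were 1.89% and 1.06%. *Tet3*, an enzyme that oxidizes 5-methylcytosine, was detected in 97.5% of FOS+ and 48.8% of FOS- nuclei. Its TPM ran from 0 to 2567 (median 170) and from 0 to 653 (median 0.94), and it differed by 4.20. The histone demethylase gene *Kdm6b* (3.49), which acts on H3K27 methylation, the related *Jmjd1c* (2.21) and the acetyl-histone reader *Brd2* (2.83) were the other calls upward. *Hmgn3*, a nucleosome-binding protein gene outside the list, was lower by 3.32, and *Cenpa*, which encodes the centromeric histone H3 variant, was higher by 4.45 and detected in 52.5% of FOS+ against 2.44% of FOS- nuclei. Of 72 RNA-binding and splicing genes, *Hnrnpa2b1* (2.46) and *Mbnl2* (2.09) were called higher (2.78%) and *Hnrnpr* lower (-2.04, 1.39%), shares near those of all broadly detected genes. The last call was not made on any of 4 other scales.

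Of 19 broadly detected nuclear noncoding RNA genes, *Mirg* (2.71), a miRNA-bearing transcript of the imprinted chromosome 12 cluster, and *Neat1* (2.26), the scaffold of paraspeckles, were called higher. In this list 10.5% were called higher and 5.26% lower, against 1.89% and 1.06% of all broadly detected genes. *Neat1* was detected in 50% and 17.1% of nuclei, and its maximum TPM was 635.8 in FOS+ and 3.08 in FOS- nuclei. It entered the set mainly through FOS+ nuclei. *A830018L16Rik*, which the annotation lists as protein coding, was called lower (-2.19) but not on the TMM or DESeq2 scales. *1700016P03Rik* was among the 20 largest differences (5.24). It was detected in 65% of FOS+ and 9.76% of FOS- nuclei, with a maximum TPM of 3358 and 256.2. Its transcribed span on chromosome 11 holds the hairpins of 2 activity-regulated miRNAs. Their mature RNAs were not measured in these libraries, and their RefSeq sequences are shown, with the seed (bases 2 to 8) in capitals, because the seed, the main determinant of target choice, is the same in both. On GRCm38.p6 miR-132-3p lies on the plus strand at chr11:75173723-75173744 and miR-212-3p at chr11:75173443-75173464:
mmu-miR-132-3p: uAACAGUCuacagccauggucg
mmu-miR-212-3p: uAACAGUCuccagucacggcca
Exons of *1700016P03Rik* share 641 bases with *Ovca2* on the opposite strand. *Ovca2* was also called higher (2.43), and without strand the reads of the shared bases cannot be told apart. The exonic lengths of the pair are 863 and 2670 bases. *Mir22hg*, picked once the values were known, holds miR-22 and was called higher as well (4.32), in 70% and 19.5% of nuclei.

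**Adhesion, guidance and membrane excitability.** Of 70 broadly detected adhesion genes, 3 were called higher (4.29%) and 1 lower (1.43%), with a median of -0.03. The shares over all broadly detected genes were 1.89% and 1.06%. *Pcdh8*, the activity-induced protocadherin arcadlin that promotes N-cadherin internalization, differed by 5.40. Its TPM ran from 0 to 2284 (median 589) in FOS+ and from 0 to 205.5 (median 0.8) in FOS- nuclei. *Lingo1* (5.22), a component of the Nogo receptor complex, was detected in 82.5% and 34.1% of nuclei, and *Adgrb1* (2.35) encodes the adhesion receptor BAI1. *Cdh11*, a classical cadherin gene, was called lower (-2.13), in 5% of FOS+ and 46.3% of FOS- nuclei. Of 36 guidance genes, *Epha10* (4.56), *Rtn4rl1* (2.14) and *Rtn4rl2* (2.04) were called higher (8.33%) and none lower. *Rtn4rl1* and *Rtn4rl2* encode homologues of the Nogo receptor.

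None of 12 ionotropic glutamate receptor subunits and none of 8 GABA-A receptor subunits was called. The largest absolute differences were those of *Grik2* (-1.36) and *Gabra4* (-1.33), and the medians were -0.22 and -0.41. Of 31 potassium channel subunits, *Kcnj4* (2.73), an inward rectifier, and *Kcnk1* (2.32), a pore-domain leak channel, were called higher. They were 6.45% of the list, against 1.89% of all broadly detected genes, and none was called lower. *Kcnj4* was detected in 65% and 14.6% of nuclei, so it entered the set mainly through FOS+ nuclei. Of 23 sodium and calcium channel subunits, 2 were called lower (8.70%, against 1.06% of all broadly detected genes) and none higher. *Scn3b* encodes an auxiliary beta subunit of sodium channels. Its TPM ran from 0 to 755.2 (median 2.23) in FOS+ nuclei and from 0 to 2751 (median 233) in FOS- nuclei, and it was detected in 57.5% (exact interval 40.9 to 73%) and 87.8% (73.8 to 95.9%) of them. The groups overlapped over most of their ranges. The difference was -3.80, between 3.19 ± 3.33 and 6.98 ± 3.28, and the summed CPM was 115 against 794. *Scn1a*, the pore-forming subunit NaV1.1, differed by -2.59 and was detected in 65% and 87.8% of nuclei. *Scn2a1* (-1.46), *Scn3a* (-1.76) and *Scn8a* (-0.13) were not called, nor was any of the calcium channel subunits.

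**Figure D3:**
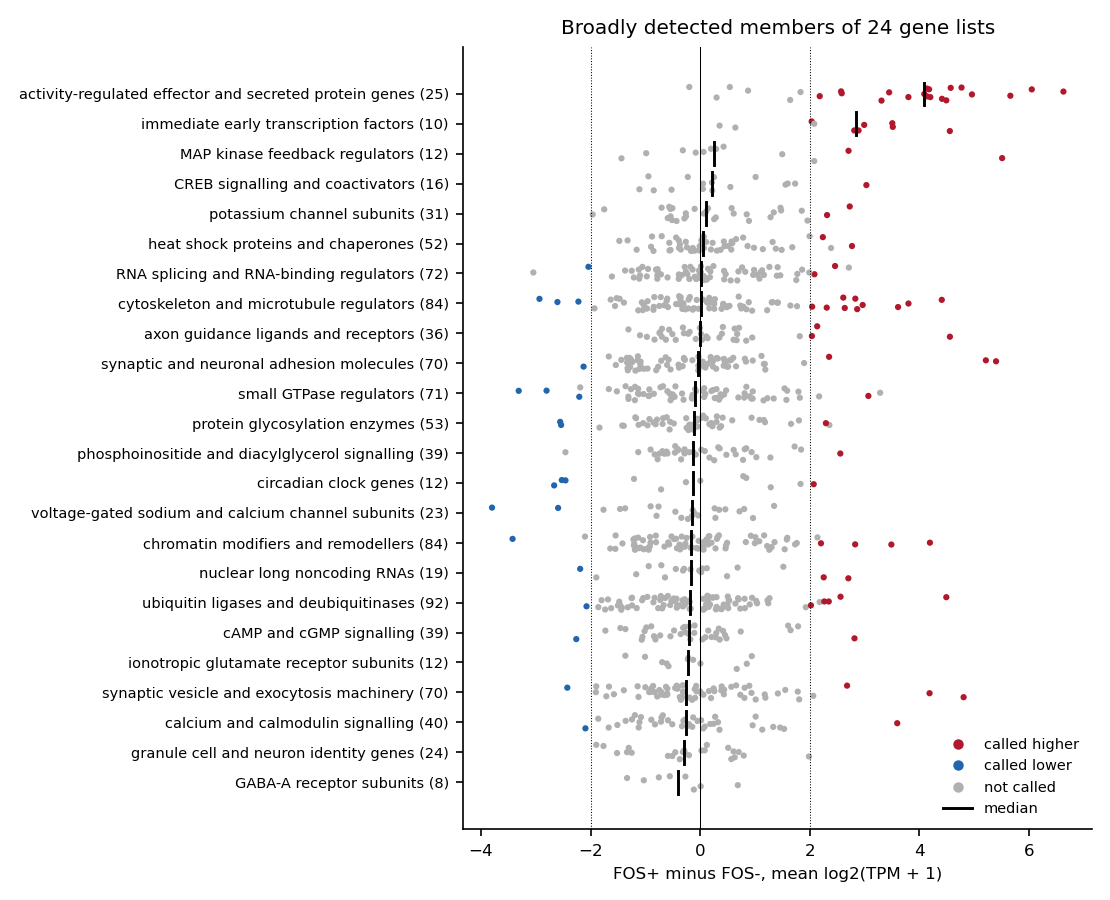
Each point is a broadly detected gene of 1 of 24 lists, given with its number of genes, placed on the x axis by its FOS+ minus FOS- difference in mean log2(TPM + 1), with a random offset on the y axis. Dotted lines mark differences of -2 and 2 and black bars the list medians, which are 4.09 for effectors and 2.85 for immediate early transcription factors and lie between -0.41 and 0.25 for the other lists. Grey points beyond the dotted lines changed sign in at least 1 amplification condition.

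**Endocytosis and the cytoskeleton.** Of 70 genes of the synaptic vesicle and exocytosis machinery, 3 were called higher (4.29%) and 1 lower (1.43%). Over all broadly detected genes the shares were 1.89% and 1.06%. The 3 called higher belong to clathrin coats, which bud endocytic vesicles. *Ap2b1*, the beta subunit of the AP-2 adaptor that links cargo to clathrin, was detected in 95% and 56.1% of nuclei. Its TPM ran from 0 to 1387 (median 231) in FOS+ and from 0 to 630.7 (median 1.81) in FOS- nuclei, and it differed by 4.81. *Cltc*, the clathrin heavy chain, differed by 4.19, with median TPM of 343 and 3.87, although 1 nucleus gave 49.4% of its FOS- counts. *Cltb*, a clathrin light chain, differed by 2.68. The other light chain gene *Clta* differed by 2.07 without keeping its sign in every condition. The remaining AP-2 subunits were not called, with *Ap2a1* at -1.12, *Ap2a2* at 1.18 and *Ap2m1* at -0.60. *Dnm1*, the dynamin that cuts vesicles from the membrane, was lower (-2.42), a call that none of 4 other scales gave.

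Of 84 cytoskeletal regulators, 10 were called higher (11.9%) and 3 lower (3.57%), with a median of 0.01. Over all broadly detected genes the shares were 1.89% and 1.06%. *Synpo* (4.41), which encodes the spine apparatus protein synaptopodin, was detected in 92.5% and 61% of nuclei. *Stmn4* (3.80), a stathmin that binds tubulin, was detected in 70% and 24.4%. *Frmd6*, *Dclk1*, *Fmnl1*, *Dpysl5*, *Baiap2*, *Lmo7* and *Actn4* were also called higher, by between 2.05 and 3.61. *Dclk1* was detected in 100% and 95.1% of nuclei and was therefore a difference in level, with a mean log2(TPM + 1) of 9.36 ± 1.76 against 6.39 ± 2.31. *Clasp2* (-2.93) and *Clasp1* (-2.60), which encode paralogous proteins that stabilize microtubule plus ends, were both lower. *Clasp2* had a TPM of 0 to 393.2 (median 25.8) in FOS+ and 0 to 553.9 (median 104) in FOS- nuclei and was detected in 62.5% and 95.1% of them. *Dpysl4* was lower by 2.22. Of 71 regulators of small GTPases, *Abr* (3.07) was called higher, and *Arhgap20* (-3.31), *Iqsec2* (-2.80), an exchange factor for ARF6 at synapses, and *Rapgef4* (-2.21), a cAMP-gated exchange factor for Rap, were called lower. These were 1.41% and 4.23% of that list.

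A cyclic AMP response element (CRE, the palindrome TGACGTCA, searched on both strands) lies in the 250 bases before the RefSeq start of *Plk2* and of *Ap2b1*. They are the only 2 of the 20 largest upward differences with that motif in the windows searched, and are shown for this reason with the motif in capitals, 5′ to 3′ on the plus strand of GRCm38.p6. The *Plk2* window is chr13:110394794-110395043 and the *Ap2b1* window chr11:83302447-83302696. The RefSeq start of *Ap2b1* lies 3673 bases from the 5′ end of the gene in the annotation used for positions.
Plk2: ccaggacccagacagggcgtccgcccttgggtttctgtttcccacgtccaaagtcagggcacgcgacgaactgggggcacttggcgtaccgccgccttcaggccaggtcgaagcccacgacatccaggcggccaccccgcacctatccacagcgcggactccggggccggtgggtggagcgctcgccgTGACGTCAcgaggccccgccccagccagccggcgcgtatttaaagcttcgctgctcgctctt
Ap2b1: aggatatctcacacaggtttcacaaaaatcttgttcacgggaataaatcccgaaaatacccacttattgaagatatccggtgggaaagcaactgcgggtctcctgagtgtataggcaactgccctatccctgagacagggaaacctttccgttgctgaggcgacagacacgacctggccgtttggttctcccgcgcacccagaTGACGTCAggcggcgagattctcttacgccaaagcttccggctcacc
Of the genes with a RefSeq window, the CRE was found in 9 of 126 called higher (7.14%), 4 of 65 called lower (6.15%) and 176 of 6071 broadly detected genes (2.90%), and in 1.61% of 27025 RefSeq genes. Besides *Plk2* and *Ap2b1* the upward calls with the motif were *Scg2*, *Cltb*, *Btg2*, *Chgb*, *Arl5b*, *Braf* and *Ahcyl1*. The motif TGANTCA was searched with any base at its centre, so it is wider than the AP-1 consensus and its count is not one of AP-1 sites alone. It was found in 2 of 126 genes called higher (1.59%) and in 4.15% of the broadly detected genes. The CArG box was found in 0.794% and 1.27%, and the E-box CACGTG in 9.52% and 8.07%. *Arc*, *1700016P03Rik* and *Synpo* had no entry in the table of windows.

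**Protein turnover, folding and glycosylation.** Of 92 ubiquitin ligases and deubiquitinases, 5 were called higher (5.43%) and 1 lower (1.09%). Over all broadly detected genes the shares were 1.89% and 1.06%. *Fbxo33* (4.50), an F-box substrate receptor, was detected in 75% and 24.4% of nuclei, and *Rnf19a* (2.56), *Fbxw7* (2.35), the deubiquitinase gene *Usp2* (2.27) and *Mib1* (2.02) followed. *Rnf220* was lower (-2.07), in 7.50% and 41.5% of nuclei. Of 52 chaperone genes, *Dnajb5* (2.77) and *Dnajc1* (2.24), both of the DNAJ co-chaperone family, were called higher (3.85%) and none lower. *Dnajc1* was detected in nearly all nuclei of both groups and differed in level, with summed CPM of 855 and 167. Of 53 glycosylation genes, *Galnt9* (2.30), which starts O-linked glycosylation, was called higher, and *B4galt3* (-2.55), a galactosyltransferase, and *Pigk* (-2.54), a subunit of the enzyme that attaches GPI anchors, were lower. These were 1.89% and 3.77% of that list. Exons of *B4galt3* overlap *Ppox* on the opposite strand.

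**Clock genes.** Of 12 broadly detected circadian genes, 1 was called higher and 3 lower (25%, against 1.06% of all broadly detected genes), with a median of -0.13. *Tef* and *Hlf* encode transcription factors of the PAR bZIP family, which bind D-box elements and act in the output of the clock. *Tef* had a TPM of 0 to 689.9 (median 0) in FOS+ and of 0 to 1077 (median 59.8) in FOS- nuclei, and was detected in 42.5% (exact interval 27 to 59.1%) and 82.9% (67.9 to 92.8%) of them. It differed by -2.66. *Hlf* was detected in 20% and 56.1% of nuclei and differed by -2.46. The third member of the family, *Dbp*, was not broadly detected (2 and 5 nuclei). Among the period genes the directions were split. *Per3* was lower by 2.52, in 72.5% and 92.7% of nuclei, whereas *Per2* was higher by 2.07, in 60% and 29.3%, and *Per1*, which also responds to activity, differed by 1.83 and was not called. *Clock* differed by 0.00. The *Tef* and *Per2* calls were not made on the DESeq2 scale, while the *Per3* call was made on all 4 other scales.

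**Figure D4:**
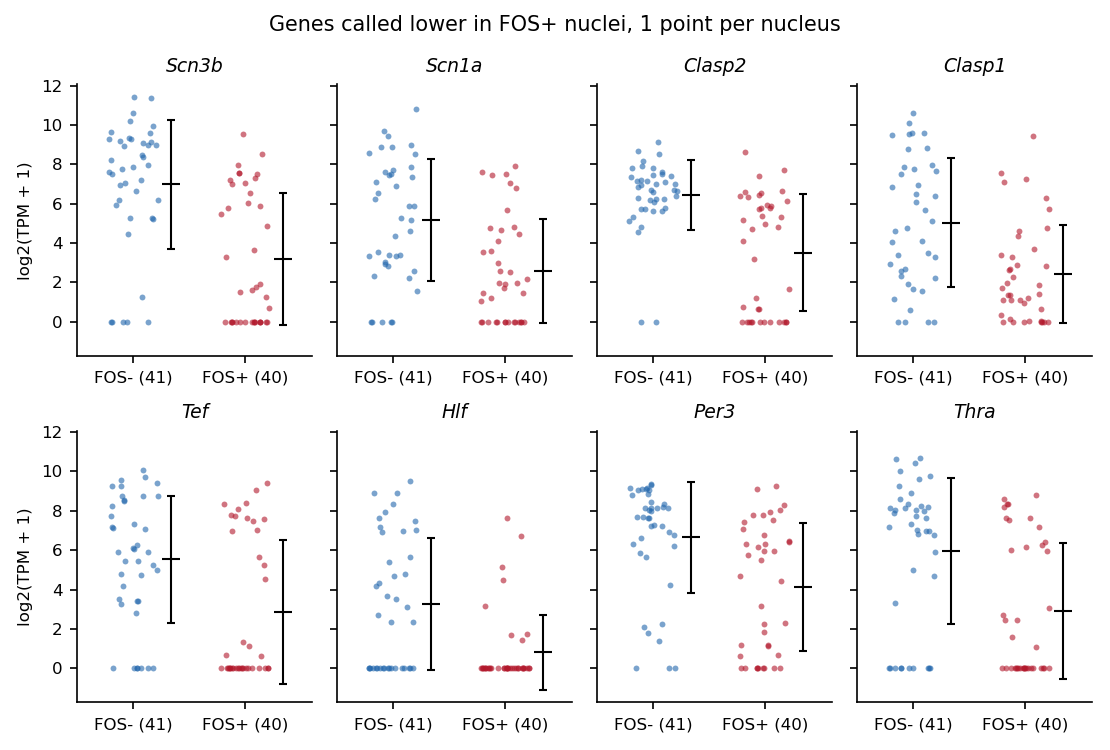
Each point is 1 nucleus, with its log2(TPM + 1) on the y axis for 8 genes called lower in FOS+ nuclei, 41 FOS- nuclei in blue and 40 FOS+ nuclei in red. Black bars give the mean and SD over nuclei. The groups overlap for every gene, and more FOS+ than FOS- nuclei lie at or near 0.

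**Other genes among the largest downward differences.** *Grb14* (-3.67), an adaptor that inhibits receptor tyrosine kinases, *Myef2* (-3.56), a repressor of the myelin basic protein gene, and *Thra* (-3.05), the thyroid hormone receptor alpha, were lower. *Thra* was detected in 50% and 75.6% of nuclei. *Wdfy3* (-2.97), an adaptor of selective autophagy, *Itga8* (-2.78), an integrin alpha subunit, and *Hook1* (-2.70), which links cargo to microtubule motors, followed. *Soga3* (-3.69), *3110057O12Rik* (-2.90), *Asphd2* (-2.77), *2610507B11Rik* (-2.71) and *Snhg9* (-2.76), a host transcript of small nucleolar RNAs, were also among the 20 largest. *Gm25873*, *Itga8* and *Snhg9* were not called on any of 4 other scales. *Gm25873* had summed CPM of 0.58 and 6.03, so that its large difference in TPM rests on few counts of a very short gene, and near-identical copies of small nuclear RNA genes leave its reads uncertain. *Scn3b*, *Soga3*, *Grb14*, *Myef2*, *Arhgap20*, *Thra*, *Clasp2*, *Iqsec2* and *2610507B11Rik* were called on all 4. Among these genes, exons of *Soga3*, *Myef2*, *Hmgn3*, *Arhgap20*, *Thra*, *Wdfy3*, *Itga8*, *Snhg9*, *2610507B11Rik*, *Hook1* and *Tef* overlap genes on the opposite strand, as do those of *Pcdh8*, *Ifrd1*, *1700016P03Rik*, *Ap2b1*, *Pim1*, *Bdnf* and *Epha10* among the 20 largest upward differences. Exons of 39.4% of the genes called lower overlapped another gene, against 32.2% of those called higher and 34% of all broadly detected genes.

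**Other genes among the largest upward differences.** *Ifrd1* (5.38), a transcriptional co-regulator, was detected in 80% and 22% of nuclei, *Etv3* (5.21), an ETS family repressor, in 72.5% and 17.1%, and *Osbpl6* (5.0), of the oxysterol-binding protein family, in 90% and 51.2%. Of the 177 genes called higher, 70 belonged to at least 1 of the 24 lists, as did 21 of the 99 called lower. The share of all broadly detected genes in these lists is not given. The lists were written with earlier results known, so these counts only show how many calls the lists cover. The genes named next belong to none of the lists and were picked once their values were known. They are single genes with no count of the uncalled members of their pathways. Among calls upward were *Pmepa1* (4.21), *Smad7* (2.63) and *Ski* (2.44), which each encode an inhibitor of TGF-beta signalling, and the receptor tyrosine kinase genes *Fgfr1* (3.12) and *Ntrk2* (2.55). Transporters called higher included the glucose transporter gene *Slc2a1* (3.19), the mitochondrial phosphate carrier gene *Slc25a3* (3.64) and the taurine transporter gene *Slc6a6* (2.82). Among calls downward were *Ago1* (-2.61), of the RNA-induced silencing complex, *Atm* (-2.13), a DNA damage kinase, *Apc* (-2.37), which acts in Wnt signalling and binds microtubules, and *Actl6b* (-2.02), a neuronal subunit of the BAF complex.

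**Identity genes and other cell types.** None of 24 broadly detected granule cell and neuron identity genes was called, with a median of -0.28. *Prox1* was detected in 82.5% of FOS+ and 82.9% of FOS- nuclei, *Rbfox3*, which encodes NEUN, in 75% and 75.6%, and *Calb1* in every nucleus. The largest difference in the list was that of *Pdzd2* (1.99), and *Stxbp6* (-1.90), *Bcl11b* (-1.76) and *C1ql2* (-1.52) lay on the other side. Markers of other cell types were found in nuclei of both groups. None of them was called. The summed TPM of 10 oligodendrocyte markers ranged from 0 to 1328 (median 41.1) in FOS+ and from 0 to 731.8 (median 38.9) in FOS- nuclei, with *Olig2* undetected. That of 8 astrocyte markers had medians of 16 and 16.2, with *Aldh1l1* undetected. For 8 microglial markers the medians were 4.62 and 5.08, with *C1qa*, *C1qc* and *Tmem119* undetected, and for 5 endothelial markers 0 and 0.68, with *Cldn5* and *Cdh5* undetected. The 6 GABAergic markers had medians of 26.3 and 1.22 and maxima of 1360 and 5822, with *Gad1* detected in 47.5% and 36.6% of nuclei and *Pvalb* in none. The 6 pyramidal markers had medians of 0 and 0.56. The part of these markers in the differences was not tested.

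The 5 broadly detected genes with the highest levels were not called. *Malat1*, a nuclear noncoding RNA, had a mean log2(TPM + 1) of 16.75 ± 1.4 in FOS+ and 16.26 ± 0.59 in FOS- nuclei and took summed CPM of 57200 and 31800. Its lowest FOS+ value, a TPM of 512, was that of the nucleus with the fewest detected genes (1373). *Ppp1r8*, *Calb1*, *Gm17132* and *Gm37404* differed by between -0.59 and 0.22.

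**Amplification conditions.** The leading upward differences had the same sign in all 4 conditions by construction, but not the same size. Of the 20 largest, 18 were smallest with 10 µM TSO and ERCC at 1:200, where their median was 3.28, against 6.67 (1 µM, 1:200), 5.78 (1 µM, 1:2000) and 4.95 (10 µM, 1:2000). *Arc* differed by 3.35 in that condition and by 9.26, 6.59 and 7.60 in the others. *Bdnf* was an exception, with differences between 4.0 and 5.63 in all 4. Over all 177 genes the medians were 1.79 in that condition and between 2.93 and 3.65 elsewhere. Of the 20 largest downward differences, 12 were smallest with 10 µM TSO and 1:200, where their median was -1.96. Over the 99 genes called lower, the smallest median difference was that with 1 µM TSO and 1:200 (-1.82) and the largest that with 10 µM and 1:2000 (-3.20). The rule asked for no least size within a condition, and some calls had almost no difference in 1 of them. *Mdh1* differed by -0.008 with 1 µM TSO and 1:200, and *A830018L16Rik* by -0.04 with 10 µM and 1:200. Without the 10 µM, 1:200 nuclei, 282 genes were called higher and 208 lower. Whether depth, the reagents or the nuclei that fell into each condition account for this was not tested.

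**Figure D5:**
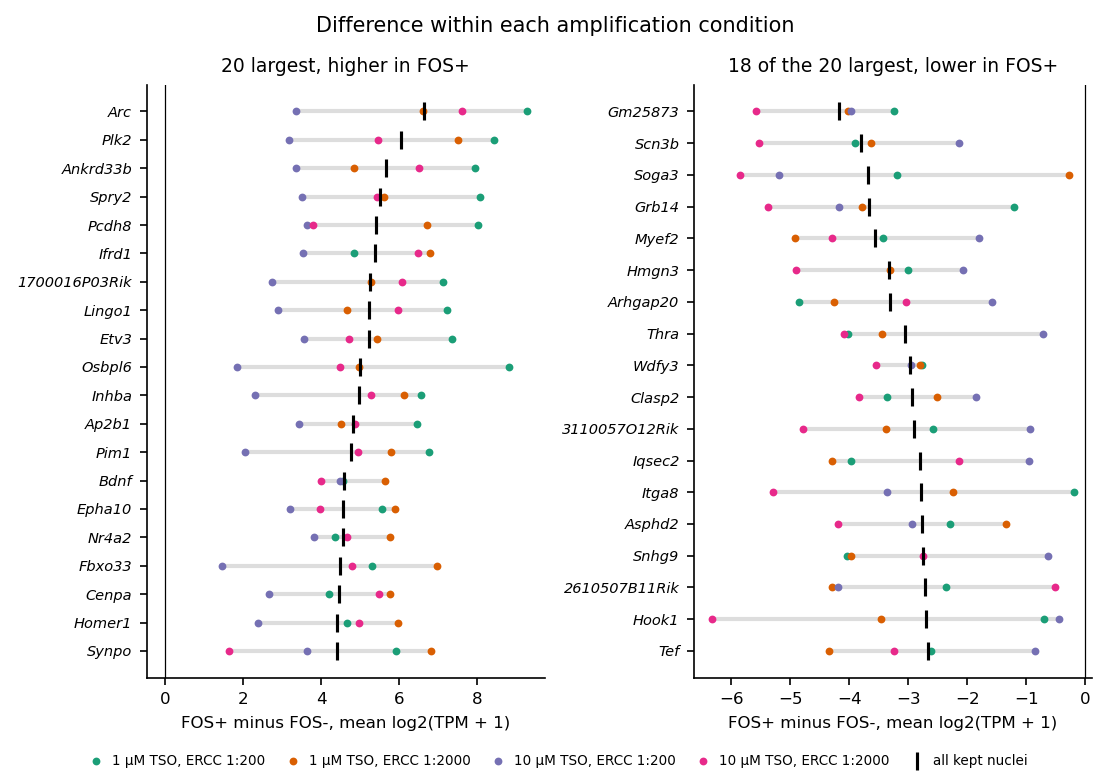
Coloured points give the FOS+ minus FOS- difference in mean log2(TPM + 1) within each amplification condition (8 to 11 nuclei per sort group) for the 20 largest upward calls (left) and for 18 of the 20 largest downward calls (right), and black ticks the difference over all kept nuclei. On the left, 18 of 20 genes have their smallest difference at 10 µM TSO and ERCC 1:200 (purple).

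**What the called genes share.** The rule of size limits calls among genes with low levels, since a difference of 2 cannot be reached when both means are small. When the genes were split into 4 bins of nearly equal size by mean level, 1 of the 2338 genes of the lowest bin was called higher and 3 lower, against 83 (3.55%) and 50 (2.14%) in the highest. Genes called lower had a median exonic length of 6639 bases and a median span of 42954 bases, against 5039 and 26802 for genes called higher and 4556 and 23464 for all broadly detected genes that matched the annotation (97.1%). Protein-coding genes made up 89.2% of those called higher, 89.4% of those called lower and 77.4% of all. Nuclei of an HC mouse, kept in its home cage, were prepared on another platform and lie in another table, so their values stand beside these without a comparison. In 23 HC nuclei, genes called higher were detected in a median of 17.4%, genes called lower in 39.1% and broadly detected genes in 21.7%. *Arc* and *Pim1* were each detected in 4.35% of HC nuclei and *Nr4a2* in 17.4%, *Ptgs2* was listed at 0, *Scn3b* was detected in 60.9% and *Per3* in 73.9%. A TPM of 1 or less in every HC nucleus was listed for 24 of the 177 genes called higher (13.6%), 2 of the 99 called lower (2.02%) and 1218 of the 9318 broadly detected genes found in the HC table (13.1%), so that the share among the genes called higher was near that of all.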

How the data were processed

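Single DGC nuclei of a mouse exposed to NE were amplified by Smart-seq2, made into libraries with Nextera XT and sequenced in single-end 50-base reads. The authors trimmed reads with Solexa-QA++, aligned them with Bowtie 1.0.0 through RSEM to GRCm38 with an Ensembl annotation and deposited expected counts, which are estimated counts per gene and need not be whole. The TPM values were deposited by the authors from the same RSEM runs and are relative to the total of each nucleus. The libraries do not keep strand.

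The members and gene lists were chosen with earlier results of these data known. The series text gives 1 NE mouse, so that each sort group is 1 sample and no test was made. Differences are of mean log2(TPM + 1). Expected counts were rounded before thinning, while summed counts were rounded only after summing. Intervals are exact Clopper-Pearson for shares and exact Poisson for sums, at 95%. The named genes are *Arc*, *Pim1*, *Ptgs2*, *Nr4a2* and *Fos*, the 20 largest called differences in each direction, the 2 largest called in each direction of each list (or the largest absolute difference where none was called) and the 5 genes with the highest level. Other genes are named in group descriptions by their list, or are said to have been picked once values were known. Gene positions are those of GENCODE M21 and promoter and miRNA sequences those of RefSeq, both GRCm38. Of the 9351 genes, 6071 had a promoter window. Scale alternatives used edgeR 4.0.16 (TMM) and DESeq2 1.42.0 (size factors only). The calculation of differences and calls was tested on simulated data. Spike-in counts were not used here, and a few genes that fall under these rules are not reported here.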

Additional observations from a re-analysis of the deposited data

Results flagged for a closer look

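Of the nuclei left out for low depth or few genes, 2 of 8 FOS+ and 1 of 7 FOS- nuclei had an *Arc* TPM above 1. This is a signal in nuclei that no comparison above uses, and the difference of 1 nucleus was not tested. *Nr4a2* was detected in 1 of the 8 and 1 of the 7, *Fos* in 0 and 1, and *Pim1* and *Ptgs2* in none.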

How the results depend on the processing

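No paired analysis was possible because the nuclei are numbered only in the order of their labels, so that equal numbers in the sort groups share nothing, and because the results come from no test. The counts of 177 genes called higher and 99 lower depended on the size asked for and on the scale. A difference of 1 gave 468 and 559, and a difference of 3 gave 61 and 9. With a pseudocount of 10 they were 59 and 10, so that 85.5% of calls were upward. Dividing counts by DESeq2 size factors left 14 genes called lower. Without the nuclei at 10 µM TSO and ERCC 1:200 the counts were 282 and 208, and without those at 1 µM and 1:200 there were 205 genes called lower. In those settings the sign had to agree in 3 conditions rather than 4. All 96 nuclei gave 104 genes called higher, detection in 40 or more nuclei gave 100 and 60, and a rule on the share of detecting nuclei (30 percentage points or more) gave 55 lower. Other alternatives moved each count by less than 1.5 times, among them CPM of rounded counts (206 and 104), TMM (221 and 93), thinning to 50000 counts (213 and 146 higher and lower), and, added after seeing the data, leaving out the nucleus with the fewest genes (197 and 90) and centring each nucleus (201 and 88). On the thinned, CPM and TMM scales together, 155 of the 177 and 65 of the 99 genes were called, and with the DESeq2 scale as well 106 and 14. Among named genes with a call, *Fos*, *Rps6ka3*, *Rtn4rl1*, *Kcnj4*, *Kcnk1*, *Galnt9*, *Per2*, *Tef*, *Cdh11*, *Clasp1*, *Hmgn3*, *Wdfy3*, *3110057O12Rik*, *Asphd2*, *Hook1*, *Camta1*, *B4galt3* and *Pigk* were called on the other scales but not on the DESeq2 scale. *Mbnl2* was not called after thinning, *Dnajc1* not on the CPM scale and *Rnf220* on neither the thinned nor the DESeq2 scale.

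For named genes with a call, the sign of the difference in level was the same under the alternatives run for it. For named genes without a call, changes of sign were not looked for. The difference in the share of detecting nuclei reversed for *Dnajc1*, from just below 0 to 2.38 points with a TPM above 5, 14.57 with a count of 5 or more, 9.7 after thinning and 3.03 in nuclei over 100000 counts. The causes were not tested. A gene missing from a nucleus was not detected at that nucleus's depth, which does not show that it was absent.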

Other observations

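The genes named next, called higher or lower, lie outside the 24 lists, and their values were known when they were picked. *Ptprn*, a membrane protein of dense core vesicles, was higher in FOS+ nuclei by 2.86, in 90% and 65.9% of nuclei, and *Chgb*, a granin, by 2.58, in 75% and 56.1%. *Dot1l*, which encodes the H3K79 methyltransferase, was higher by 2.97, with a median TPM of 309 in FOS+ and 30.6 in FOS- nuclei. *Mt1*, a metallothionein that binds zinc, reached a TPM of 8607 in FOS+ and 533.5 in FOS- nuclei (difference 3.29). *Slc6a17*, a vesicular transporter of neutral amino acids, was higher by 2.96.

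Among genes called lower, *Faah*, which degrades the endocannabinoid anandamide, differed by -2.63 (median TPM 4.33 and 125). *Kifap3*, the adaptor of kinesin-II, differed by -2.43, in 30% and 75.6% of nuclei, *Mdh1*, a malate dehydrogenase, by -2.38, and *Cbx6*, a Polycomb protein, by -2.53. *Dbn1*, the spine protein drebrin, differed by -2.08, but its highest TPM was 1474 in FOS+ and 1455 in FOS- nuclei.

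*Ppp1r8*, a nuclear inhibitor of protein phosphatase 1, was detected in 100% of FOS+ and 95.1% of FOS- nuclei with a median TPM of 5980 and 7740, and in 4.35% of the HC nuclei, which were prepared on another platform and lie in another table.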
